A study of Homo sapiens with 12 samples.

Results

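The genes described here are 10 that encode proteins stored in the specific (secondary) and gelatinase (tertiary) granules of human neutrophils: LTF, CAMP, LCN2, MMP8, MMP9, OLFM4, TCN1, CEACAM8, HP and CHI3L1. They were chosen by name, as the rows of the count table whose identifiers carry these symbols, and each symbol matched 1 of the 58288 genes in the table. Their transcripts were measured by RNA-sequencing of rRNA-depleted RNA in HL-60/S4 cells, a fast-differentiating subline of a human acute promyelocytic leukemia line. The study compared the response to TNF-α before and after granulocytic differentiation, in 4 groups of 3 libraries, each library from its own flask. Vehicle promyelocytes were undifferentiated cells given water for 2 h, and TNF-α promyelocytes were the same cells given TNF-α at 16 ng/mL for 2 h. Vehicle granulocytes were cells first kept for 4 days in 1 µM all-trans retinoic acid (ATRA) and then given water for 2 h. TNF-α granulocytes received ATRA in the same way and then TNF-α at 16 ng/mL for 2 h. In both granulocyte groups the fresh medium used for treatment also held 1 µM ATRA, and the cell density was lower than for promyelocytes. All 4 groups came from 1 cell line and were treated in calcium-supplemented medium. Promyelocytes and granulocytes were handled as independent experiments, so cell state and experiment cannot be told apart in any comparison of levels between them.

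A neutrophil precursor fills its granules in sequence as it matures. Azurophil granules, with myeloperoxidase and serine proteases, are packed at the promyelocyte stage, specific granules at the myelocyte and metamyelocyte stages, and gelatinase granules in band cells. The specific granule genes depend on the transcription factor C/EBPε, and HL-60 cells are known to mature with few of these granules. Several of the same genes, LCN2 and MMP9 among them, are also known targets of NF-κB, the pathway that TNF-α activates.

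Each library held between 22829189 and 31895061 counts, with a median of 28233190. Levels are given as CPM, counts scaled to a common library size with TMM factors, or as RPKM, the same per kilobase of exon, where genes are compared with each other. The promyelocyte markers MPO, ELANE, PRTN3, AZU1 and CTSG were all lower in vehicle granulocytes than in vehicle promyelocytes, and all 8 granulocytic differentiation markers tested, CD38 and ITGAM among them, were higher. The 6 TNF-α response genes used as a check, NFKBIA and TNFAIP3 among them, rose with TNF-α in both cell states. Of 8 monocyte and macrophage markers, CSF1R alone had enough counts to be tested. It was called higher in vehicle granulocytes than in vehicle promyelocytes, with a log2 difference of 3.63. With TNF-α it was called lower in granulocytes, with a log2 fold change of -0.64, and was not called in promyelocytes. MARCO was at 0 counts in every library. The summed list gave 107 to 139 counts in vehicle promyelocytes and 92 to 104 in TNF-α promyelocytes. In granulocytes it gave 1335 to 1483 with vehicle and 672 to 950 with TNF-α. The 6 lymphoid markers summed to 149 to 455 counts over all libraries. None of the 6 erythroid and platelet markers could be tested. The 6 eosinophil markers summed to 1049 to 1303 counts in vehicle promyelocytes, 896 to 948 in TNF-α promyelocytes, 2129 to 2284 in vehicle granulocytes and 1530 to 2150 in TNF-α granulocytes, with CLC higher and PRG2, PRG3 and SIGLEC8 lower in vehicle granulocytes than in vehicle promyelocytes. The part of these marker levels in the results below was not tested.

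Without TNF-α the 10 granule genes were expressed at low levels, with means of at most 3.24 CPM. Of the members tested, 1 of 3 in promyelocytes and 3 of 4 in granulocytes were raised by TNF-α. Of all genes tested in these states, 8.15% and 24.4% were called higher, and 14.8% and 49.2% were called in either direction. MMP9 rose about 6-fold in promyelocytes and 12-fold in granulocytes, CHI3L1 and OLFM4 rose in granulocytes, and no member fell significantly with TNF-α in either state. No read was assigned to LCN2 across the 12 libraries, and LTF and MMP8 received 2 and 4 reads in all. In vehicle promyelocytes all 10 genes together received 165 to 188 counts per library, 0.000581 to 0.000668% of the total, and in vehicle granulocytes 151 to 218 counts, 0.000614 to 0.000760%. With TNF-α they received 0.00165 to 0.00200% of the counts in promyelocytes and 0.00236 to 0.00302% in granulocytes. MMP9 alone made up 40.0% of the members' counts in vehicle promyelocytes and 77.8% in TNF-α promyelocytes, and 24.5% and 68.3% in the corresponding granulocyte groups. In bulk libraries of this kind, fewer expressing cells and less RNA per cell cannot be told apart.

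**Figure D1:**
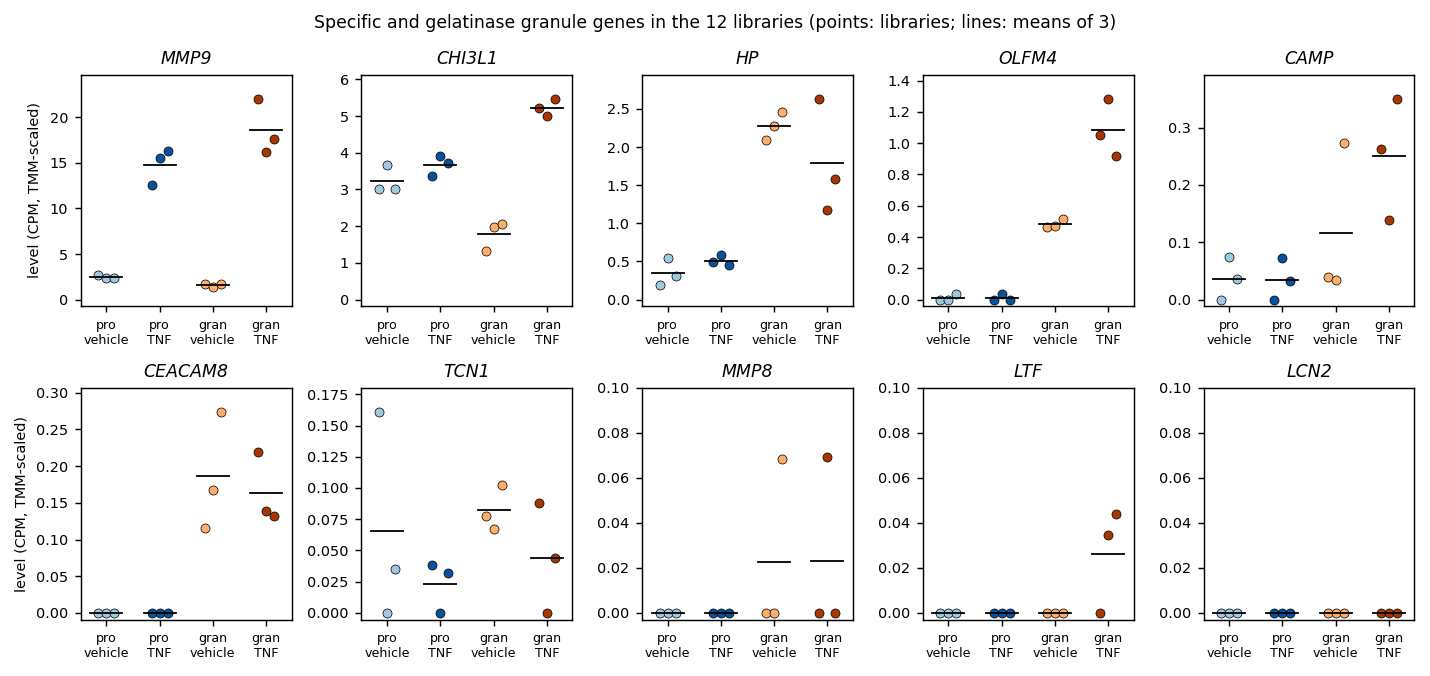
Level of each of the 10 granule genes (TMM-scaled CPM, linear axis that differs between panels) in the 12 libraries, by group (pro, promyelocytes; gran, granulocytes); each point is a library and each line the mean of 3. MMP9 lay between 12.5 and 22.0 CPM with TNF-α and between 1.41 and 2.67 CPM without, OLFM4 and CEACAM8 were detected almost entirely in granulocytes, and LCN2 was at 0 throughout.

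In promyelocytes, 3 of the 10 members had enough counts to be tested and 1, MMP9, was called higher and none lower, where 14.8% of all 16250 genes tested were called, 8.15% higher and 6.65% lower. HP entered this comparison through its counts in the TNF-α libraries, all of which were over 10, and so was not an unselected member. In granulocytes 4 members were tested (OLFM4 in addition), 3 were called higher and none lower, where 49.2% of 16944 genes were called, 24.4% higher and 24.8% lower. OLFM4 was tested only where granulocyte libraries were in the fit. With so few members tested, these counts describe single genes.

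MMP9, gelatinase B, is the protease that gives gelatinase granules their name and it cleaves denatured collagens and collagen IV. Its gene (ENSG00000100985.7) lies on the plus strand of chromosome 20, from 46008908 to 46016561 in hg38. It received 83, 63 and 67 counts in the vehicle promyelocyte libraries and 328, 428 and 507 counts in the TNF-α promyelocyte libraries. In granulocytes it received 45, 42 and 50 counts with vehicle and 502, 467 and 403 counts with TNF-α. Every TNF-α library was above every vehicle library, in both states. The mean level went from 2.45 ± 0.19 to 14.8 ± 2.0 CPM in promyelocytes and from 1.62 ± 0.18 to 18.6 ± 3.0 CPM in granulocytes (SD, n = 3 each). The fitted log2 fold change was 2.59 (SE 0.14, adjusted p = 1.67e-11) in promyelocytes, a 6.03-fold rise, and 3.57 (SE 0.14, adjusted p = 9.76e-23) in granulocytes, an 11.9-fold rise, by edgeR's quasi-likelihood test with Benjamini-Hochberg adjustment over all genes tested.

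The MMP9 response was larger in granulocytes. The difference of the log2 responses, granulocytes minus promyelocytes, was 1.02 (SE 0.22, adjusted p = 0.0011, edgeR interaction term), and 4 members could be tested for such a difference, of which 2, MMP9 and CHI3L1, were called, both with a larger response in granulocytes. Of all 18124 genes in that fit, 24% were called, 14.1% in this direction and 9.88% in the other. MMP9 also started lower in granulocytes, with vehicle libraries at 1.41 to 1.74 CPM where vehicle promyelocytes were at 2.32 to 2.67 CPM. After TNF-α the ranges met, at 12.5 to 16.3 CPM in promyelocytes and 16.2 to 22.0 CPM in granulocytes. Its exons share 430 bases with SLC12A5-AS1 on the opposite strand, whose gene received 196 counts over all 12 libraries, and the counting used strand.

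TIMP1, the inhibitor that binds MMP9, was followed beside it. TIMP1 received 396 to 486 counts in vehicle promyelocytes and 390 to 487 counts with TNF-α, a log2 fold change of 0.01 (SE 0.09, adjusted p = 0.964). In granulocytes it received 2860 to 3399 counts with vehicle and 3715 to 4872 with TNF-α, a log2 fold change of 0.68 (SE 0.05, adjusted p = 8.83e-14). The ratio of MMP9 to TIMP1 transcript per length was 0.105 ± 0.007 in vehicle promyelocytes and 0.637 ± 0.120 in TNF-α promyelocytes (SD, n = 3). In granulocytes the same ratio was 0.00953 ± 0.00095 with vehicle and 0.0705 ± 0.0068 with TNF-α. TIMP1 transcript thus exceeded MMP9 transcript per length in all 4 groups, most in vehicle granulocytes.

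CHI3L1 encodes the chitinase-like protein YKL-40, which binds chitin without cleaving it and is stored in specific granules. The gene (ENSG00000133048.12) is on the minus strand of chromosome 1, from 203178931 to 203186749. It received 94, 100 and 86 counts in vehicle promyelocytes and 88, 108 and 116 counts in TNF-α promyelocytes, ranges that overlapped in CPM (3.02 to 3.68 and 3.36 to 3.91). Vehicle granulocytes gave 34, 59 and 60 counts, and TNF-α granulocytes gave 119, 144 and 125. In granulocytes all TNF-α libraries (4.998 to 5.47 CPM) were above all vehicle libraries (1.32 to 2.05 CPM). The log2 fold change was 1.59 in granulocytes (SE 0.18, adjusted p = 1.64e-09), a 3.005-fold rise, and 0.18 in promyelocytes (SE 0.17, 95% interval -0.15 to 0.51, adjusted p = 0.538). The responses differed by 1.44 on the log2 scale (SE 0.24, adjusted p = 5.74e-05, edgeR interaction term). CHI3L1 was thus lower in granulocytes than in promyelocytes without TNF-α and, by range over libraries, higher with it.

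OLFM4 encodes olfactomedin 4, a secreted glycoprotein of specific granules that is present in a subset of neutrophils. The gene (ENSG00000102837.6) is on the plus strand of chromosome 13, from 53028759 to 53052057. In promyelocytes it received 0, 0 and 1 counts with vehicle and 0, 1 and 0 with TNF-α, too few to test. In granulocytes it received 12, 14 and 15 counts with vehicle and 24, 37 and 21 counts with TNF-α. The TNF-α granulocyte libraries, at 0.920 to 1.28 CPM, were all above the vehicle granulocyte libraries, at 0.464 to 0.513 CPM. The log2 fold change was 1.22 (SE 0.35, adjusted p = 0.00336), a 2.33-fold rise from 41 to 82 counts over 3 libraries each. The difference between the responses of the 2 states, fitted at 1.23, had an SE of 2.09 and a 95% interval of -2.87 to 5.32 (adjusted p = 0.729), so a difference was not detectable at this depth. Its sign rested on 1 read: without vehicle promyelocyte replicate 3 it was -0.60 (adjusted p = 0.674).

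HP encodes haptoglobin, the hemoglobin-binding plasma protein that neutrophil precursors also store in specific granules. The gene (ENSG00000257017.8) is on the plus strand of chromosome 16, from 72054592 to 72061055. It received 6, 15 and 9 counts in vehicle promyelocytes and 13, 16 and 14 in TNF-α promyelocytes. Vehicle granulocytes gave 54, 68 and 72 counts and TNF-α granulocytes 60, 34 and 36. The granulocyte groups overlapped because TNF-α replicate 1, at 2.63 CPM, was above all 3 vehicle libraries, while replicates 2 and 3, at 1.18 and 1.58 CPM, were below them. HP was not called in either state, with a log2 fold change of 0.54 in promyelocytes (SE 0.45, 95% interval -0.34 to 1.41, adjusted p = 0.488) and -0.32 in granulocytes (SE 0.24, 95% interval -0.79 to 0.16, adjusted p = 0.289). The granulocyte value depended on single libraries: without TNF-α replicate 1 it was -0.68 (adjusted p = 0.0287), and without TNF-α replicate 2 it was -0.06 (adjusted p = 0.864). In promyelocytes the fits lacking 1 library gave values of 0.23 to 1.00, with adjusted p-values of 0.311 to 0.831. The near copy HPR, which could take or give reads, had at most 1 count in any library.

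**Figure D2:**
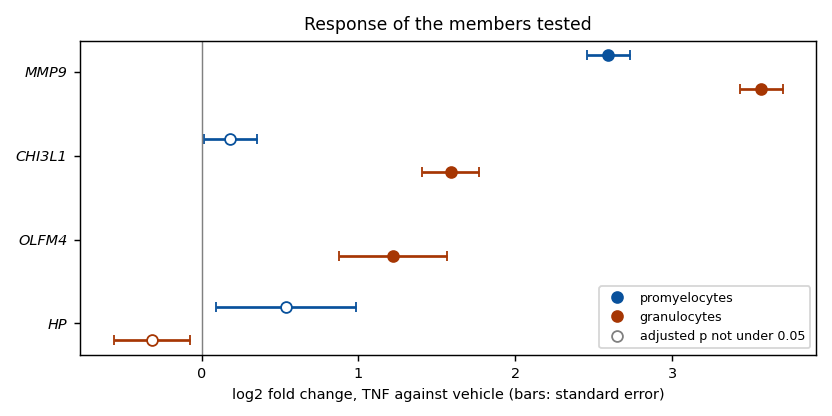
Log2 fold change of TNF-α against vehicle for the members with enough counts to be tested (points), with standard errors (bars), in promyelocytes and granulocytes; open points did not pass an adjusted p of 0.05, and OLFM4 was not tested in promyelocytes. MMP9 is far from 0 in both states (2.59 and 3.57) and CHI3L1 in granulocytes alone (1.59), and the difference between the states was called for both genes.

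The remaining 6 members stayed near or at the limit of detection in both states. CAMP, the precursor of the antimicrobial peptide LL-37, received 0, 2 and 1 counts in vehicle promyelocytes, 0, 2 and 1 in TNF-α promyelocytes, 1, 1 and 8 in vehicle granulocytes and 6, 4 and 8 in TNF-α granulocytes. Of its 10 counts in vehicle granulocytes, 8 were from replicate 3. CEACAM8, the surface marker CD66b that is carried on specific granule membranes, had 0 counts in all 6 promyelocyte libraries, 3, 5 and 8 in vehicle granulocytes and 5, 4 and 3 in TNF-α granulocytes. TCN1, the vitamin B12-binding protein haptocorrin, received 5, 0 and 1 counts in vehicle promyelocytes, 1, 0 and 1 with TNF-α, 2, 2 and 3 in vehicle granulocytes and 2, 0 and 1 with TNF-α. MMP8, neutrophil collagenase, had 2 counts in vehicle granulocyte replicate 3 and 2 in TNF-α granulocyte replicate 2, and none elsewhere. LTF, the iron-binding protein lactoferrin that defines specific granules, had 1 count in each of TNF-α granulocyte replicates 2 and 3 and none elsewhere. LCN2, the siderophore-binding protein lipocalin 2, had none in any library, a count that over all 12 libraries allows a level of up to 0.00906 CPM by counting error alone.

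None of these 6 passed the filter on low counts in any comparison. When the filter was left out, edgeR gave unadjusted p-values for TNF-α in granulocytes of 0.174 for CAMP and 0.837 for CEACAM8, with adjusted p-values of 0.371 and 0.914. The ratio of the summed counts of TNF-α to vehicle granulocytes was 2.05 for CAMP, with a 95% counting interval of 0.899 to 4.98, and 0.856 for CEACAM8, with an interval of 0.369 to 1.93. A TNF-α effect on CAMP, CEACAM8, TCN1, MMP8 or LTF was therefore not detectable at this depth. These genes lie at 46435645 to 46485234 on chromosome 3 (LTF, ENSG00000012223.12, minus strand), 48223347 to 48225491 on chromosome 3 (CAMP, ENSG00000164047.4, plus strand), 128149071 to 128153455 on chromosome 9 (LCN2, ENSG00000148346.11, plus strand), 102711795 to 102727050 on chromosome 11 (MMP8, ENSG00000118113.11, minus strand), 59852800 to 59866575 on chromosome 11 (TCN1, ENSG00000134827.7, minus strand) and 42580241 to 42595055 on chromosome 19 (CEACAM8, ENSG00000124469.11, minus strand). CEACAM8 belongs to a family of closely related genes on this chromosome, so its few counts are uncertain as to which copy they came from.

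The sequences before a RefSeq start of 3 members are shown because their transcripts behaved differently under the same treatment: LCN2 had no reads, OLFM4 rose from a low level in granulocytes, and CHI3L1 rose in granulocytes and was not called in promyelocytes. The sequences are the 250 bases before the RefSeq transcription start in GRCh38.p14, given 5′ to 3′ on the strand of the gene. They lie at chr9:128149203-128149452 (LCN2, plus strand), chr13:53028563-53028812 (OLFM4, plus strand) and chr1:203186705-203186954 (CHI3L1, minus strand). The gene annotation used for the counts starts earlier than these RefSeq starts. The LCN2 window lies wholly inside the gene span used for counting, and the spans of OLFM4 and CHI3L1 begin inside their windows. Capitals mark matches to an NF-κB pattern (GGG, any 2 bases, T, any 2 bases, CC) or a C/EBP pattern (TTGCNNAA, N being any base), searched on both strands, and no marked stretch overlaps another.
LCN2: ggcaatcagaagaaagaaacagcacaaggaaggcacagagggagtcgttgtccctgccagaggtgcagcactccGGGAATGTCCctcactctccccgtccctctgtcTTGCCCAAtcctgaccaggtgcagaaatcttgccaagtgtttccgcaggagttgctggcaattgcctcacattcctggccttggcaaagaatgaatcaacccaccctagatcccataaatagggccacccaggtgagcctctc
OLFM4: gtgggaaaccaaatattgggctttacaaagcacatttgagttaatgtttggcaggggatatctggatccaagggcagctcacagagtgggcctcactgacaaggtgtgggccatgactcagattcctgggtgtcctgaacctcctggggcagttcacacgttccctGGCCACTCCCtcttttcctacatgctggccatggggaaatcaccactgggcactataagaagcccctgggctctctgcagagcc
CHI3L1: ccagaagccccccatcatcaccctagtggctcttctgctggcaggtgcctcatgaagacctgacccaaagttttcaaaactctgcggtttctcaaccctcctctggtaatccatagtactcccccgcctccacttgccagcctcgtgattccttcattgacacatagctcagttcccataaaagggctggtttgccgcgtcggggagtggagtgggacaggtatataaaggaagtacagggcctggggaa
LCN2 carried GGGAATGTCC with its first base 176 bases before the start and TTGCCCAA at 143 bases before it. OLFM4 carried 1 NF-κB match, on the other strand, read here as GGCCACTCCC and starting 84 bases before the start. CHI3L1 carried neither pattern in this window. Among all 35116 RefSeq promoter windows of this length, 19.7% held the NF-κB pattern and 9.05% the C/EBP pattern. Of the 10 members, 8 had a promoter entry, and MMP9 and HP had none. MMP8 and TCN1 each had 1 C/EBP match, LTF had matches in its windows at 2 of 3 listed starts, and CAMP and CEACAM8 had none. A match of letters is a description of the window and not a binding site.

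Between the cell states without TNF-α, 4 members could be tested and all 4 were called, 2 higher in granulocytes (HP and OLFM4) and 2 lower (MMP9 and CHI3L1). OLFM4 passed the filter on low counts only through the granulocyte libraries, where it was high, so that its call is not one of an unselected member. Of all 18124 genes in that fit, 72% were called, 35.7% higher and 36.3% lower, so a call in this comparison was the usual outcome for any gene. HP was 2.28 ± 0.19 CPM in vehicle granulocytes and 0.354 ± 0.182 CPM in vehicle promyelocytes (SD, n = 3 each), a log2 difference of 2.68 (SE 0.35, adjusted p = 1.14e-07), and the libraries did not overlap. OLFM4 had 41 counts over the vehicle granulocyte libraries and 1 over the vehicle promyelocyte libraries, a ratio of 41.9 with a 95% counting interval of 7.11 to 1694 (edgeR adjusted p = 4.25e-06). Its single read was in promyelocyte replicate 3, and without that library the fitted log2 value, which depends on the prior count, moved from 4.90 to 6.72. MMP9 fell by 0.62 on the log2 scale (SE 0.19, adjusted p = 0.00525) and CHI3L1 fell by 0.87 (SE 0.18, adjusted p = 0.000127), both with vehicle granulocyte libraries below all vehicle promyelocyte libraries.

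CEACAM8 was the clearest of the untested members between the states. Its 16 counts in vehicle granulocytes were 5.45 times a floor of 3 counts over the 3 vehicle promyelocyte libraries, after scaling for library size. In the TNF-α groups its 12 counts were 4.57 times that floor. These ratios leave out the counting error of the granulocyte counts, so they are not lower limits. With no filter, edgeR gave CEACAM8 an adjusted p of 0.00235, and DESeq2 gave 0.00428. In those fits 13735 of 32683 and 13020 of 24178 genes were called. As said above, it is uncertain which copy of the gene family its few counts came from. For CAMP the ratio of vehicle granulocytes to vehicle promyelocytes was 3.40 with a counting interval of 0.877 to 19.3, and in the TNF-α groups it was 6.85 with an interval of 2.001 to 36.3. The ratio for TCN1 in the vehicle groups was 1.19, with an interval of 0.343 to 4.29. For LTF, MMP8 and LCN2 both states were at or under the floor, and no ratio was formed.

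Per length, the order of the members differed between groups mainly below the first 2 places. MMP9 had the highest mean in every group, at 1.05 RPKM in vehicle promyelocytes, 6.32 in TNF-α promyelocytes, 0.694 in vehicle granulocytes and 7.98 in TNF-α granulocytes. CHI3L1 was next in all 4, at 0.951, 1.07, 0.523 and 1.54 RPKM. The libraries of MMP9 and CHI3L1 overlapped in vehicle promyelocytes and not in the other 3 groups. In vehicle granulocytes they all but met, with the lowest MMP9 library at 0.602996 RPKM and the highest CHI3L1 library at 0.602392 RPKM. In vehicle granulocytes HP followed at 0.421 RPKM, overlapping with CHI3L1, and then OLFM4 at 0.166 and CAMP at 0.155, which overlapped with each other. In TNF-α granulocytes OLFM4 (0.375 RPKM), CAMP (0.337) and HP (0.332) were next, each overlapping with its neighbor. In promyelocytes HP was 0.0655 RPKM with vehicle and 0.0940 with TNF-α, a level that CHI3L1 exceeded 14.5 and 11.4 times, and overlapped with CAMP. The per-length value of HP was taken over 5405 exonic bases of all its annotated transcripts, the longest of the 10 members, which lowers it if the cells express a shorter transcript. The order thus rests on these lengths. In CPM, which is not per length, MMP9 (2.45) was under CHI3L1 (3.24) in vehicle promyelocytes, and under HP (2.28) and CHI3L1 (1.78) in vehicle granulocytes, where it was 1.62.

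Other lists of granule genes held far more counts in the same libraries, though not in every gene. The 14 azurophil granule genes took 0.620 to 0.927% of all counts per library, and 27 other genes of specific, gelatinase or ficolin-1 granules took 0.0791 to 0.507%. MPO, myeloperoxidase, was 1823 RPKM in vehicle promyelocytes and 580.4 RPKM in vehicle granulocytes, 1740 and 837 times the MMP9 level per length. ELANE, neutrophil elastase, went from 42 to 58 counts in vehicle promyelocytes to 0 to 1 in vehicle granulocytes. The α-defensin gene DEFA3, which shares reads with near-identical copies and is uncertain for that reason, went from 616 to 714 counts to 26538 to 26885. Of the 14 azurophil genes, 8 were higher and 6 lower in vehicle granulocytes, where 72% of all genes tested were called, 35.7% higher and 36.3% lower. ELANE passed the filter on low counts only through promyelocyte libraries, so its direction is not that of an unselected gene.

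**Figure D3:**
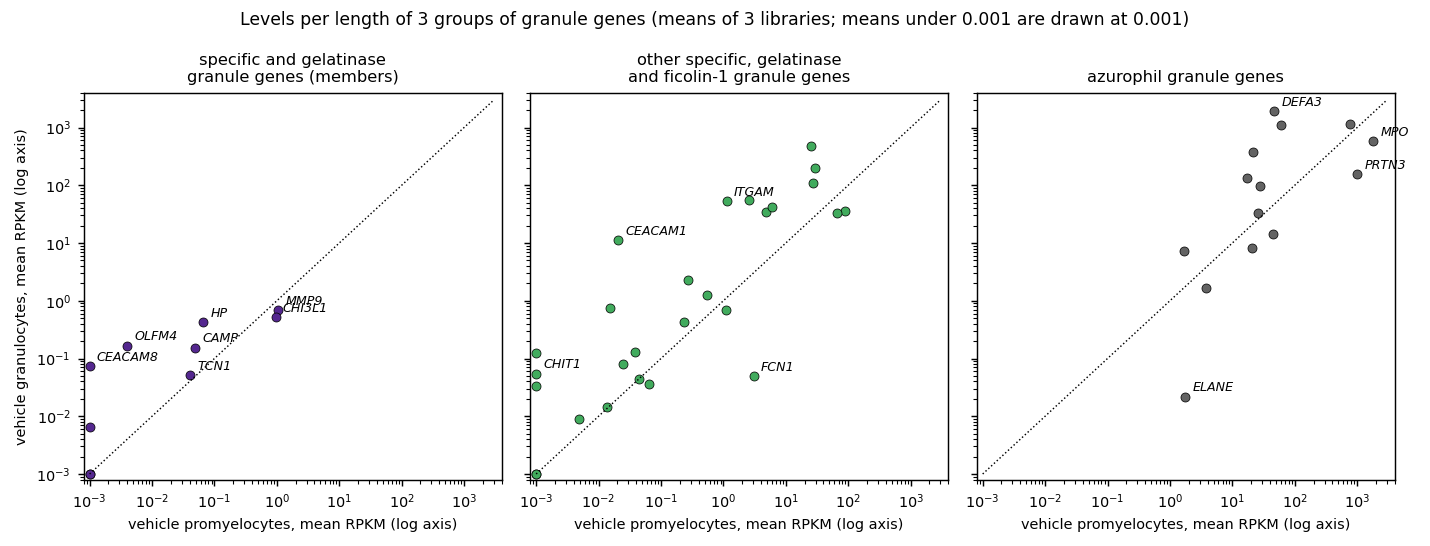
Mean level per length (RPKM, both axes on a log scale) in vehicle promyelocytes (horizontal) and vehicle granulocytes (vertical) for the 10 members, 27 other specific, gelatinase and ficolin-1 granule genes and 14 azurophil granule genes; each point is a gene, the dotted line marks equal levels, and means under 0.001 are drawn at 0.001. All members lie at or under 1.05 RPKM on both axes, where MPO reaches 1823 and 580.4 RPKM.

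The other specific, gelatinase and ficolin-1 granule genes were not uniformly low. Of 27, 20 could be tested between the vehicle groups, and 13 were higher and 4 lower in granulocytes. Of all genes tested, 72% were called, 35.7% higher and 36.3% lower. Some of the list, CEACAM1 and CHIT1 among them, passed the filter on low counts only through granulocyte libraries, and FCN1 only through promyelocyte libraries. The directions of these genes are therefore not those of unselected genes. CEACAM1, a family member of CEACAM8 that is also carried on granule membranes, went from 2 to 4 counts to 1493 to 1906 counts. ITGAM, the CD11b subunit of the integrin stored in these granules, went from 180 to 189 counts to 7469 to 9115 counts. CHIT1, an active chitinase related to CHI3L1, went from 0 counts in all 3 libraries to 10 to 16 counts. FCN1, ficolin-1, went the other way, from 383 to 487 counts to 4 to 12 counts. Other genes of this list were as low as the lowest members. Named after their values were seen, CRISP3 and ARG1 had 0 counts in every library. PGLYRP1 had at most 1 count in any library, CD177 at most 2 and SLPI at most 7. Very low counts were thus not particular to the 10 members.

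With TNF-α, 6 of 17 such genes tested rose and none fell in promyelocytes, and 7 of 18 rose and 4 fell in granulocytes. TNFAIP6 in both states and PTX3 in promyelocytes passed the filter on low counts only through the TNF-α libraries, where they were high. These tallies are therefore not of unselected genes. Of all genes tested, 14.8% were called in promyelocytes, 8.15% higher and 6.65% lower. In granulocytes 49.2% were called, 24.4% higher and 24.8% lower. TNFAIP6, the hyaluronan-binding protein TSG-6, went from 1 to 4 counts to 248 to 303 counts in promyelocytes and from 1 to 3 counts to 394 to 558 counts in granulocytes. QPCT, glutaminyl cyclase, rose by 0.97 on the log2 scale in promyelocytes (SE 0.32, adjusted p = 0.0454) and 2.22 in granulocytes (SE 0.21, adjusted p = 2.01e-11). PTX3, the pentraxin of specific granules, went from 0 to 3 counts to 20 to 23 counts in promyelocytes. In granulocytes PTX3 had 1 to 6 counts with vehicle and 3 to 9 with TNF-α, ranges that overlapped. CEACAM1 fell by 1.32 in granulocytes (SE 0.06, adjusted p = 8.26e-20). Among azurophil granule genes the changes were small, with 1 of 14 higher and 3 lower in promyelocytes and 3 of 13 higher and none lower in granulocytes. The largest of these called was SRGN, serglycin, the proteoglycan that packs granule proteins, with a log2 fold change of 0.55 in granulocytes.

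**Figure D4:**
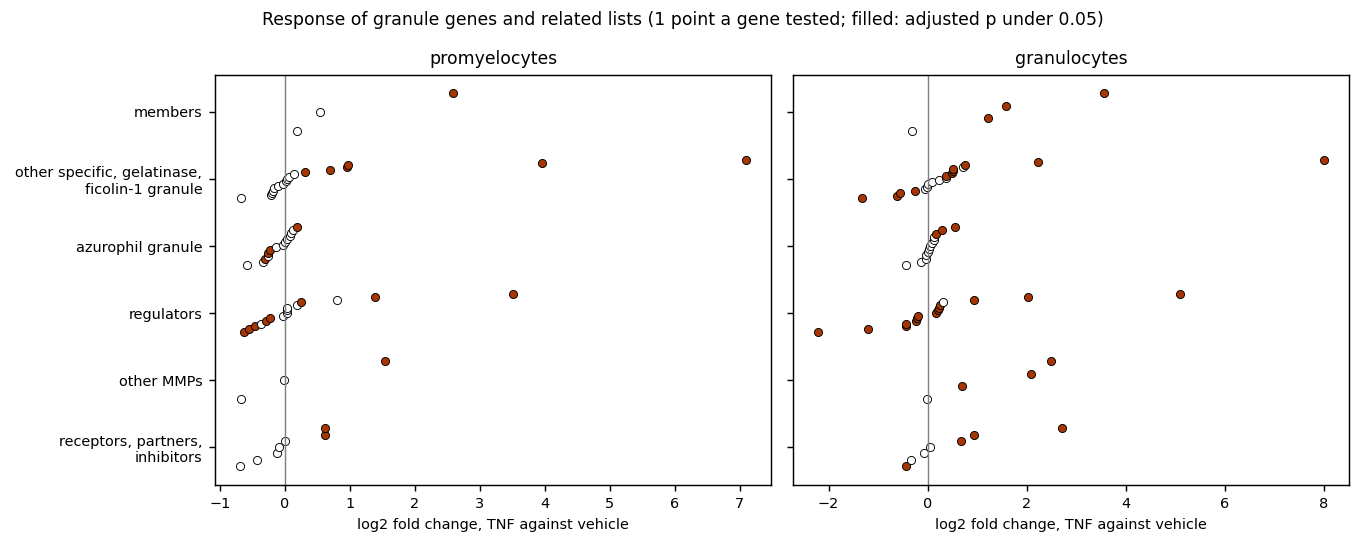
Log2 fold change of TNF-α against vehicle in promyelocytes and granulocytes for every gene tested in the member list and 5 related lists; filled points passed an adjusted p of 0.05. The member farthest to the right is MMP9 in both states (2.59 and 3.57), azurophil granule genes lie close to 0, and the point near 7 and 8 is TNFAIP6, whose fitted value depends on the prior count since its vehicle libraries held 1 to 4 counts.

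Among 15 regulators of granule genes, 3 rose and 5 fell with TNF-α in promyelocytes, and 7 rose and 7 fell in granulocytes. Of all genes tested, 8.15% rose and 6.65% fell in promyelocytes, and 24.4% rose and 24.8% fell in granulocytes. BCL3, an IκB family protein that works with NF-κB in the nucleus, had 100 to 125 counts in vehicle promyelocytes and 1095 to 1558 with TNF-α, and 127 to 184 and 4005 to 5008 counts in the granulocyte groups. Its log2 fold change was 3.52 in promyelocytes (SE 0.10, adjusted p = 1.16e-15) and 5.09 in granulocytes (SE 0.07, adjusted p = 1.17e-36). NFKB1, which encodes an NF-κB subunit, rose by 1.38 and 2.02. CEBPE, whose product C/EBPε is required for specific granules, fell by 0.46 in promyelocytes (adjusted p = 1.42e-05) and fell by 1.22 in granulocytes (adjusted p = 2.6e-20). GFI1, a repressor needed for neutrophil maturation, fell by 0.29 in promyelocytes and fell by 2.21 in granulocytes, a difference of -1.88 (SE 0.07, adjusted p = 6.4e-17). NFKBIZ, named after its values were seen because its product is a known cofactor for LCN2 induction, had 3 to 18 counts before differentiation and 11 to 14 after it and was not called for TNF-α in either state (adjusted p = 0.406 and 0.553).

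Between the vehicle groups, CEBPE was 87.3 RPKM in vehicle promyelocytes and 138 RPKM in vehicle granulocytes, and the log2 difference between the states was 0.64 (SE 0.06, adjusted p = 1.28e-09). CEBPA, an earlier myeloid factor, fell by 2.28 between the vehicle groups and CEBPB rose by 3.41. GFI1 was 58.5 and 72.2 RPKM in the vehicle groups.

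Of 21 other matrix metalloproteinase genes, 3 were tested with TNF-α in promyelocytes and 4 in granulocytes. Beside this list and the 2 below, 14.8% of all genes tested were called in promyelocytes, 8.15% higher and 6.65% lower. In granulocytes 49.2% were called, 24.4% higher and 24.8% lower. MMP14, a membrane-bound collagenase, rose in both, by 1.54 (SE 0.24, adjusted p = 0.000112) and 2.49 (SE 0.12, adjusted p = 3.82e-20), with a level of 3.90 RPKM in TNF-α granulocytes where MMP9 was at 7.98 RPKM. MMP19 rose by 2.10 and MMP15 by 0.70 in granulocytes. Among 15 receptors, partners and inhibitors of the member proteins, 7 were tested in each state, and 2 rose in promyelocytes and 3 rose and 1 fell in granulocytes. CD44, a hyaluronan receptor that docks MMP9 at the cell surface, rose by 0.63 and 2.71, from 5402 to 6114 counts to 7876 to 9094 counts in promyelocytes and from 872 to 1046 counts to 4897 to 6208 counts in granulocytes. TIMP2, which was called lower in granulocytes, fell by 0.43. TCN2, the plasma counterpart of TCN1, rose by 0.94 in granulocytes. Of 16 close paralogues of the members, none of 3 tested was called in promyelocytes, and 2 rose and 4 fell among 8 tested in granulocytes.

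The genes whose pattern over the 12 libraries was most like that of a member, by Pearson's r of log2(CPM + 1), are given as a description, since the libraries share cell state, experiment and treatment. For MMP9 these were NFKBIA (r = 0.995), RELB (0.994) and TNFSF10 (0.994). For OLFM4 they were TPM4 (0.994), KIAA0232 (0.993) and DDX6 (0.992). For CHI3L1 they were GPAT4 (0.976), IGSF8 (0.974) and UBQLN4 (0.968), and for HP they were PIP4K2A (0.970), EML4 (0.967) and UBE2Q1 (0.967). None of these 12 genes was among the first 3 by Spearman's rho, so the names depend on the measure.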

How the data were processed

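RNA was sequenced as 150-base pairs after rRNA depletion. The authors aligned reads to hg38 with STAR 2.5.3a and counted them per GENCODE v27 gene with featureCounts 1.5.2, reverse-stranded, and the deposited values are raw counts per gene. All 12 columns of per-sample values were used. Symbols came from a name table that paired 57532 of 58288 identifiers. The members and the lists of related genes were chosen with earlier results of these data known.

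Counts were fitted with edgeR 4.0.16 in R 4.3.3 (TMM, filterByExpr with a minimum count of 10 and a minimum total of 15, glmQLFit and glmQLFTest, Benjamini-Hochberg, threshold 0.05). Each cell state was fitted alone for TNF-α, and all 12 libraries together for the interaction and for the vehicle groups. Printed CPM and RPKM use TMM sizes over 12 libraries, so they can depart by a few percent from fold changes fitted on 6. Standard errors are the absolute log2 fold change over the root of F. Interaction values are log2 responses in granulocytes minus those in promyelocytes. Counting intervals are exact at 95% and, like the floor of 3 counts summed over the libraries of a group, cover counting error only. Libraries came from separate flasks of 1 line, so p-values measure the spread between flasks. An exact permutation test of 3 against 3 libraries cannot go below p = 0.1 and was not used. The procedures were tested on simulated data. Alternatives were DESeq2 1.42.0, its size factors, no filter, a replicate block, all 12 libraries or the 6 vehicle libraries, leaving out each library and, chosen after seeing the data, removal of GC and length trends.

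All 10 members were named. From each other list, up to 4 called genes with the largest absolute log2 fold change per comparison were named, and markers, paralogues and the TNF-α check without this limit. Genes said above to be named after their values were seen fall outside this rule. Likeness named 3 genes per member whose mean log2 CPM was 1 or more. Promoter sequences are from RefSeq (GRCh38.p14).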

Additional observations from a re-analysis of the deposited data

Results flagged for a closer look

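The response to TNF-α differed between promyelocytes and granulocytes for 2 members, each by the edgeR interaction term over all 12 libraries. For MMP9 the log2 response was larger by 1.02 in granulocytes, where all 3 TNF-α libraries were above all 3 vehicle libraries, as they also were in promyelocytes. For CHI3L1 it was larger by 1.44, with separate groups in granulocytes and overlapping groups in promyelocytes. The cell states were handled in separate experiments, and the part of this in the difference was not tested.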

How the results depend on the processing

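Every count of members called was within 1.5 times its reported value under every alternative run. Values fitted with DESeq2, its size factors, no filter, the replicate block, the other library sets and GC and length trends removed kept the direction and the side of the threshold for each member tested. Leaving out a library in turn gave 1 to 1 members called for TNF-α in promyelocytes, 3 to 4 in granulocytes, 2 to 2 for the difference and 4 to 4 between the vehicle groups. The fourth in granulocytes was HP, without TNF-α replicate 1 (log2 fold change -0.68, and -0.06 without TNF-α replicate 2). The OLFM4 difference between responses turned to -0.60 without vehicle promyelocyte replicate 3, which held its only read in vehicle promyelocytes, and ranged up to 3.06. With no filter, and with DESeq2, 5 members in place of 4 were called between the vehicle groups, CEACAM8 being the addition. Of the genes most like a member, 0 of 12 were kept with Spearman's rho, and the cause was not tested. Replicate numbers did not pair the libraries: deviations of same-numbered libraries correlated at -0.147 to -0.0439 in promyelocytes and -0.0672 to -0.0130 in granulocytes. With the replicate block 1 member was called in promyelocytes, 3 in granulocytes, 2 for the difference and 4 between the vehicle groups, the same counts as without it. Depth limits 6 members, which had 0 to 34 counts over 12 libraries.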
